A study of Mus musculus with 11 samples.

Results

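The 3 Ofd1-mutant clones of SMB21, a mouse medulloblastoma cell line, were compared with the untreated parental line by RNA sequencing. The comparison took every library that the labels give to these groups, 7 of the 11 libraries in the series. Of these, 4 came from Ofd1-mutant clones (2 from clone R14, 1 from R16 and 1 from R25) and 3 from untreated parental cells. All groups carry the same Ptch mutation, on the Ptch1tm1Mps/J strain background, and were grown as neurospheres. The clones were picked from a transposon screen for drug resistance, and the labels state neither where the transposon sits in Ofd1 nor whether the clones were kept in drug. The labels call both R14 libraries biological replicates, but they are 1 clone, so the mutant arm holds 3 clones. The other libraries were 2 Sufu-mutant clones (R13 and R1) and 2 of parental cells after 24 hours in sonidegib, an inhibitor of Smoothened. Their values are given beside a few results, and any comparison of theirs with parental cells shares the parental libraries.

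The product of Ofd1 sits at centrioles and at the base of the primary cilium and is needed to build a cilium. In Hedgehog signalling the receptor Ptch1 holds Smoothened back. When Ptch1 is lost, Smoothened moves into the cilium and activates the Gli transcription factors, which Sufu otherwise restrains. Sonic hedgehog medulloblastoma arises from granule cell progenitors of the cerebellum in which this pathway is switched on. The comparison shows which transcripts separate these Ofd1-mutant clones from the Smoothened-dependent line they came from. The clones also went through transposon mutagenesis, drug selection and cloning, which the parental libraries did not. No screened clone without an Ofd1 or Sufu mutation was read, so effects of the mutation and of the screen cannot be told apart.

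Among the clearest differences was the loss of a pair of neighbouring transcripts on chromosome 1. Cfhr2 is a gene of the complement system, and Gm4788 is a predicted gene beside it. Both were transcribed in parental cells and gave no reads in any of the 3 Ofd1-mutant clones. The stretches just before the start sites of Cfhr2 and Gm4788 are shown because these genes fell to 0 together and because their upstream sequences resemble each other. They are the 250 bases before the annotated start in RefSeq (GRCm38.p6), at chr1:139858700-139858949 on the minus strand for Cfhr2 and chr1:139781240-139781489 on the minus strand for Gm4788. Capitals mark the 4 runs of at least 12 bases that both share in the same order, 83 bases in all with a longest run of 37.
Cfhr2 upstream: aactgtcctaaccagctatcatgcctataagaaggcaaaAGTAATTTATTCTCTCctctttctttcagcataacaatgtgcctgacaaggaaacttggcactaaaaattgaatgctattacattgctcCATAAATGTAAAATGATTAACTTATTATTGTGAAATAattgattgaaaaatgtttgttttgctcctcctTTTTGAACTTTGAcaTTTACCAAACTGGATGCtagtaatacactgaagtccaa
Gm4788 upstream: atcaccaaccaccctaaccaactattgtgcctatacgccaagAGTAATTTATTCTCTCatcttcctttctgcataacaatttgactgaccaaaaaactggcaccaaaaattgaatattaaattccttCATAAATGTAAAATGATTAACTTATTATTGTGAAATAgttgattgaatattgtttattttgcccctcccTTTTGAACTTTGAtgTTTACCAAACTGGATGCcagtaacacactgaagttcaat

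Cfhr2 had 122, 163 and 99 reads in parental cells and 0 in each of the 4 mutant libraries, and it was at least 165-fold lower (edgeR quasi-likelihood adjusted p = 0.0233, and 0.0616 with both libraries of clone R14 summed into 1 sample). For Gm4788 the parental libraries held 58, 67 and 35 reads against 0 in each mutant library, at least 68.8-fold lower (adjusted p = 0.0402, and 0.0756 with R14 summed). Neither thus passed 0.05 with R14 as 1 sample. These bounds set the mutant group at 3 reads, the most that a count of 0 allows, which is 0.0225 CPM (counts scaled to a common library size) over the 4 libraries. Every parental library held both transcripts, and no mutant library held either. Fewer cells transcribing a gene and less RNA per cell cannot be told apart in such bulk samples.

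Genes further along the chromosome on either side were still read in the mutants. Aspm, a spindle pole gene, held 7277 to 19637 reads in the mutant libraries and 8127 to 16661 in the parental ones. On the other side, the potassium channel gene Kcnt2 held 17 and 78 reads in R14, 63 in R16 and 4 in R25, against 33, 38 and 34 in parental cells. Kcnt2 thus lay below the parental range in R14 library 1 and R25 and above it in R14 library 2 and R16. Both Sufu-mutant clones also held 0 reads of Cfhr2 and Gm4788, whereas the sonidegib libraries held 120 and 138 reads of Cfhr2 and 46 and 34 of Gm4788. Related genes share sequence, and reads can be split between them: 15% of the 75-base windows of Cfhr2 transcripts and 5.38% of those of Gm4788 occur in a related gene nearby. Cfhr2 and Gm4788 averaged under 5 CPM, and their values were singled out after they had been seen.

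**Figure D1:**
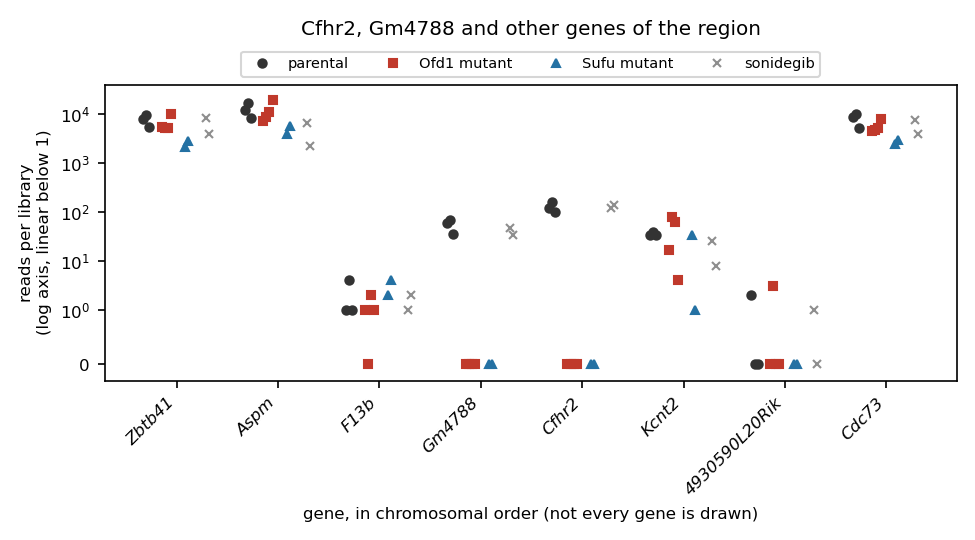
Reads per library (log axis, linear below 1) of Cfhr2, Gm4788 and other genes of the region in chromosomal order, not every gene being drawn, with parental libraries as black circles, Ofd1-mutant libraries as red squares, Sufu-mutant clones as blue triangles and sonidegib libraries as grey crosses. Every mutant library lies at 0 for Gm4788 and Cfhr2, while Aspm does not fall below 7277 in any Ofd1-mutant library.

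Across the transcriptome, 50 of 13779 genes tested passed an adjusted p of 0.05, which is 0.363% of them, with 25 higher (0.181%) and 25 lower (0.181%) in the mutants. For all 50 the 4 mutant libraries lay wholly above or wholly below the 3 parental libraries, a separation seen in 13.3% of all genes tested. Adjusted p ran from 0.00745 to 0.0499, and DESeq2, which called 770 genes (5.46%, with 3.13% higher and 2.33% lower), called all 50 as well. These calls count R14 as 2 libraries. With the R14 libraries summed into 1 sample, 1 gene passed (0.00729% of genes, adjusted p = 0.0274), and the 50 genes had adjusted p from 0.0274 to 0.103, each with its direction kept. Throughout, "rose" and "fell" refer to the test on 7 libraries, and every such call named here was lost with R14 as 1 sample.

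The number of calls moved with the libraries used. Without parental replicate 3 it was 329, and without R25 it was 226. Leaving out R14 library 1 gave 6 and leaving out R16 gave 11. No gene passed without R14 library 2 (1685 at an unadjusted p under 0.05 by edgeR), without clone R14 (1775), without parental replicate 1 (1219), without parental replicate 2 (1324) or with parental replicate 3 as the only control (1444), against 1899 (13.8%) with all 7. Parental replicate 3 stood apart from the other parental libraries: the SD of its log2 differences over genes was 0.588 against either, and that of replicates 1 and 2 against each other was 0.253. On the first principal component, which took 37.1% of the variance, parental replicates 1 and 2 scored -42.0 and -39.3, replicate 3 scored -2.84 and the mutant libraries scored 19.7 to 23.0. R25 stood apart from the other mutants on the second component, at 46.9. The 7 libraries held 30853655 to 38241595 reads each.

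**Figure D2:**
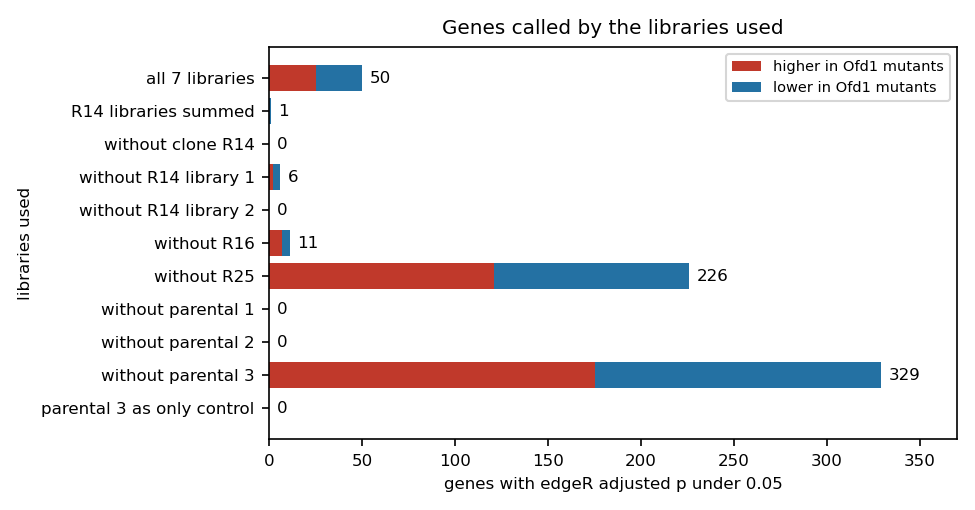
Number of genes with an edgeR adjusted p under 0.05 (horizontal axis), higher in red and lower in blue, for each set of libraries used. The count is 50 with all 7 libraries, 1 with the R14 libraries summed, 226 without R25 and 329 without parental replicate 3.

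The mutated gene itself was lower but not absent. Ofd1 stood at 42.8, 35.3 and 37.1 CPM in parental cells, and at 13.6 and 23.3 CPM in R14, 9.30 in R16 and 13.8 in R25 (log2 difference -1.35 ± 0.28, SE; adjusted p = 0.0853). The groups did not overlap, and the difference did not pass over all genes. Sufu was also lower, at 29.5, 27.6 and 28.6 CPM against 12 and 12.4 in R14, 15.7 in R16 and 19.3 in R25 (-0.94 ± 0.19, adjusted p = 0.0790).

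Sufu was not alone in this on its chromosome. Of the 21 neighbouring genes from Ldb1 to Usmg5 on chromosome 19, counting those with a mean of at least 5 CPM, 14 were lower in every mutant library than in every parental library. Of all genes of at least 5 CPM 7.35% were lower in this way and 5.42% higher. The stretch was chosen after its values were seen, among 10469 windows of 20 neighbouring genes looked at over the genome. The median log2 difference from the parental mean over the 21 genes was -0.88 and -0.68 in the R14 libraries, -0.89 in R16 and -0.27 in R25, and -0.04, -0.01 and 0.06 in the parental libraries. Leaving Sufu itself out, it was -0.86, -0.67, -0.90 and -0.24 in the mutants. R14 and R16 thus lay lowest, and R25 was nearer to the parental level. The 10 genes on each side had a median of 0.01 in the mutants. The Sufu-mutant clones lay at -0.70 (R13) and -0.60 (R1) over the same 21 genes. Among them were Arl3, a GTPase that releases lipid-anchored cargo in the cilium (-0.65 ± 0.17, adjusted p = 0.143), and Ina, a neuronal intermediate filament, which fell.

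**Figure D3:**
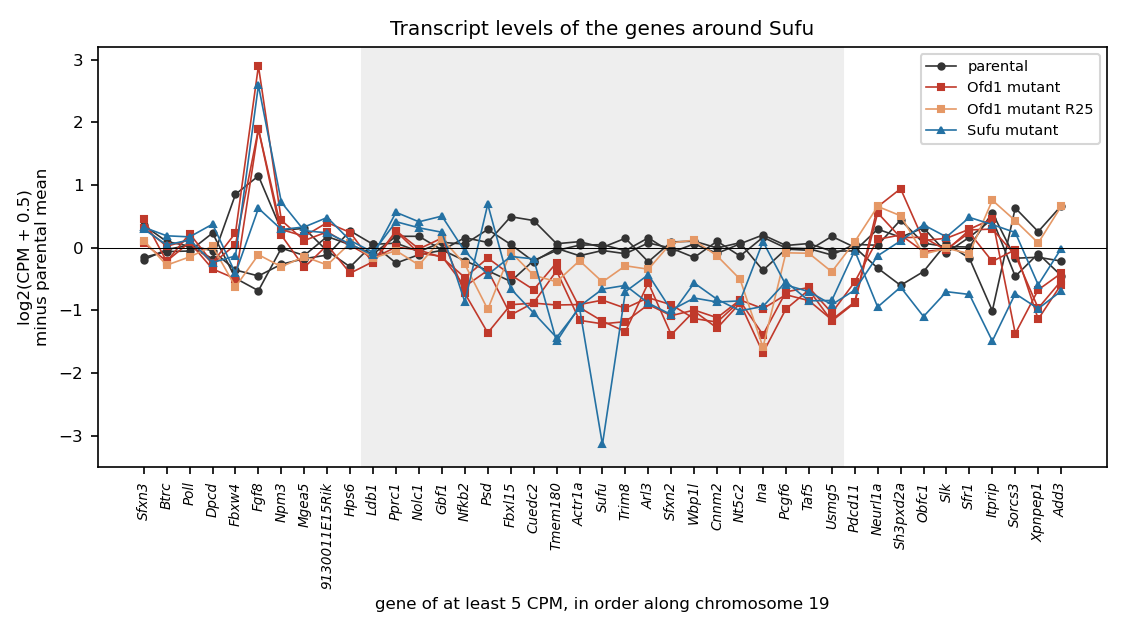
Transcript level of genes of at least 5 CPM in their order along chromosome 19, as log2(CPM + 0.5) minus the parental mean, with 1 line for each parental (black), Ofd1-mutant (red, R25 in orange) and Sufu-mutant (blue) library and the 21 genes from Ldb1 to Usmg5 shaded. From Nfkb2 to Usmg5 most values of R14, R16 and both Sufu-mutant clones lie below 0 (medians over the 21 genes -0.60 to -0.89), R25 lies nearer to the parental lines (-0.27). Outside the shading the lines run on both sides of 0, with Fgf8 high and Pdcd11 and Xpnpep1 low in R14 and R16.

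The readouts of the Hedgehog pathway showed no shared direction. Gli1, the Gli factor that is itself a target, stood at 223, 219 and 242 CPM in parental cells, at 142 and 125 in R14, 187 in R16 and 70.6 in R25 (-0.79, adjusted p = 0.247). Ptch1, a target that codes for the receptor, lay at 65.8, 86.8 and 79.8 CPM against 65.3, 92.8, 81.8 and 109 (0.17, adjusted p = 0.740), and the groups overlapped. Hhip, a target that codes for a Hedgehog-binding membrane protein, ranged from 63.9 CPM in R14 library 1 to 288 in R25 and spanned the parental values of 86.1 to 137 (0.62, adjusted p = 0.596). Of 17 Hedgehog targets tested, 0 passed, 1 (5.88%) lay above and 3 (17.6%) lay below all parental libraries, beside 6.39% and 6.95% of all genes. The median log2 difference was 0.06, beside 0.01 over all genes. The smallest p belonged to Cdk6, a cell cycle kinase, at 64.5, 75.0 and 66.0 against 45.1, 44.6, 44.6 and 54.0 CPM (-0.54 ± 0.12, adjusted p = 0.0990). At an unadjusted p under 0.05 edgeR placed 6 of the 17, and DESeq2 called 2, Cdk6 and the secreted Wnt antagonist Sfrp1. Over all genes these shares were 13.8% by edgeR and 5.46% by DESeq2. The same shares are the background for such counts in every list below. Sonidegib left Gli1 at 7.68 and 8.72 CPM, far below any mutant library.

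Genes that carry the Hedgehog signal lay lower more often than higher. Among 32 tested, 0 passed, 8 (25%) lay below all parental libraries and 2 (6.25%) above, beside 6.95% and 6.39% of all genes, and the median was -0.17. Evc, a ciliary membrane protein that binds Smoothened, had the smallest p, at 47.5, 59.7 and 48.9 CPM against 36.0, 28.6, 31.2 and 30.1 (-0.73 ± 0.13, adjusted p = 0.0644). Every mutant library was below every parental one for Evc, as it was for Sufu. At an unadjusted p under 0.05 edgeR placed 12 of the 32, 9 of them lower, beside 13.8% of all genes. DESeq2 called 6, beside 5.46% of all genes: Evc, Sufu, Gpr161, Tulp3, Cdon and Adrbk1. Gpr161 and Tulp3 restrain the pathway from the cilium, Cdon is a coreceptor, and Adrbk1 is a kinase that acts on Smoothened.

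Cilium transport and transition zone genes gave 0 calls among 59 tested, with 7 (11.9%) below and 0 above all parental libraries, against 6.95% and 6.39% of all genes, and a median of -0.06 (edgeR placed 7 at an unadjusted p under 0.05, and DESeq2 called Arl3 and Ttc8). Besides Arl3 the smallest p values were those of Ttc8, a subunit of the BBSome (-0.52, adjusted p = 0.188), and of B9d1, a transition zone protein (-0.59, adjusted p = 0.247). Of 48 centriole, satellite and centrosome genes 0 passed, with 5 below and 2 above and a median of -0.00. After Ofd1, the smallest p there was that of the centrosomal gene Ninl, at 2.49, 2.49 and 0.971 CPM against 4.40, 3.11, 5.22 and 10.3 (1.54 ± 0.51, adjusted p = 0.228). There edgeR placed 6 at an unadjusted p under 0.05, and DESeq2 called Ofd1 and Ninl. Ofd1 itself had the most negative difference of the 48.

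**Figure D4:**
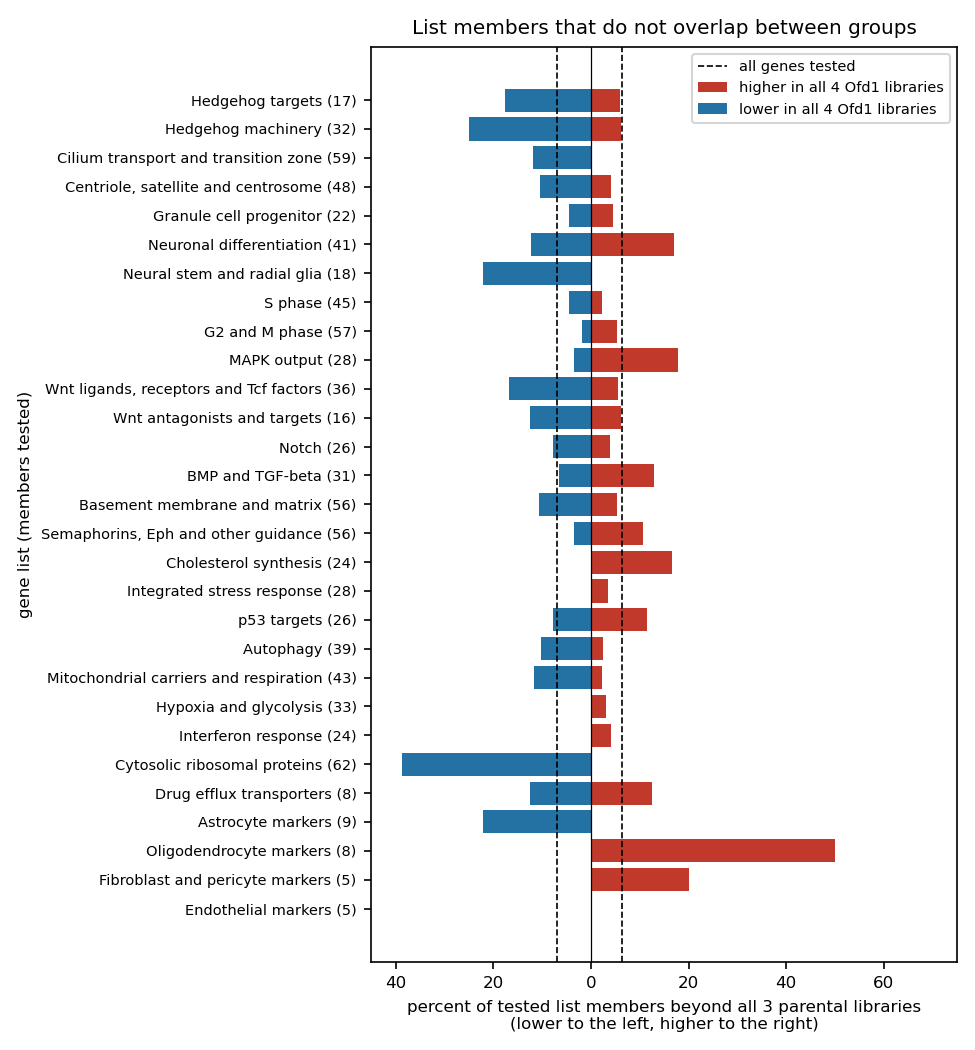
Percent of the tested members of each gene list (number tested in parentheses) that lay above (red, to the right) or below (blue, to the left) all 3 parental libraries in all 4 Ofd1-mutant libraries, with dashed lines at 6.39% and 6.95% for all genes tested. Cytosolic ribosomal proteins reach 38.7% below, and lists of fewer than 5 tested genes are left out.

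Matrix genes held the largest rise among genes of at least 5 CPM after that of Ucp2. Col18a1, the collagen XVIII chain of basement membranes, stood at 3.81, 4.74 and 2.83 CPM in parental cells and at 131 and 103 in R14, 63.0 in R16 and 38.1 in R25 (log2 change 4.46 ± 0.47, adjusted p = 0.0233). All mutant libraries were far above the parental ones, and R14 was the highest. Fbn2, the microfibril protein fibrillin 2, rose from 1.77, 2.01 and 2.33 CPM to 9.79, 12, 14 and 6.34 (2.37 ± 0.31, adjusted p = 0.0402). Emilin1, a glycoprotein that binds elastic fibres, fell from 13.7, 11.8 and 8.33 CPM to 2.63, 3.76, 2.32 and 1.89 (-2.09 ± 0.29, adjusted p = 0.0425). The list of basement membrane and matrix genes as a whole did not move one way: of 56 tested, 2 rose, 1 fell and 53 did not pass, and the median was 0.11. Ndst3, a sulfotransferase of heparan sulfate synthesis, rose by 2.18.

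Among surface and adhesion molecules, Thy1, a lipid-anchored glycoprotein of neurons and other cells, rose from 1.99, 1.96 and 1.09 CPM to 12.6 and 10.6 in R14, 4.86 in R16 and 10.7 in R25 (2.53 ± 0.40, adjusted p = 0.0487). Icam1, a ligand for leukocyte integrins, rose by 2.94 on the log2 scale. Arvcf, a catenin of cell junctions, changed by 1.05, and the LDL receptor family member Ldlrad3 by 0.65. Falls in this class were Lrrn1, a leucine-rich repeat protein of neurons, from 682, 657 and 666 CPM to 424, 444, 375 and 403 (-0.70 ± 0.10, adjusted p = 0.0425), and Podxl2, a sialomucin, from 78.8, 76.0 and 78.4 to 47.9, 45.5, 42.8 and 49.5 (-0.74 ± 0.10, adjusted p = 0.0402). The clones lay close together for both, and all were well below the parental libraries.

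Rises among genes of vesicle release, transport and excitability included both Syt1 and Hrh1. Syt1, which senses calcium for transmitter release, went from 35.3, 38.0 and 36.6 CPM to 221 and 143 in R14, 83.9 in R16 and 130 in R25 (1.98 ± 0.29, adjusted p = 0.0464), and its relative Syt16 rose by 2.5. Dync1i1, an intermediate chain of cytoplasmic dynein, rose from 2.24, 1.98 and 3.71 CPM to 10.8, 15.5, 7.93 and 12.4 (2.14 ± 0.32, adjusted p = 0.0475). Slc8a1, a sodium-calcium exchanger, rose from 22.0, 21.5 and 24.0 CPM to 51.8, 50.4, 45 and 53.1 (1.15 ± 0.12, adjusted p = 0.0233). The clones held Slc8a1 at nearly the same level, with a mean of 50.1 ± 3.54 CPM (SD, n = 4 libraries). Hrh1, a histamine receptor, rose from 1.73, 1.56 and 2.15 CPM to 10.5, 7.30, 9.79 and 9.59 (2.36 ± 0.24, adjusted p = 0.0233). Slc26a10, of an anion transporter family, rose from 1.77, 1.64 and 2.38 CPM to 11.7, 14.3, 10.4 and 7.78 (2.52 ± 0.28, adjusted p = 0.0246), and the diacylglycerol kinase Dgki changed by 1.02.

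Potassium channel subunits were among the falls. Kcnj10, an inward rectifier known from glia, fell from 6.59, 6.38 and 2.71 CPM to 0.372, 0.586, 0.816 and 0.577 (-3.15 ± 0.42, adjusted p = 0.0402). Its level in each library is given although it averaged under 5 CPM. Kcnj12, another inward rectifier, changed by -2.36, and the accessory subunit Kcne1l fell from 29.4, 32.2 and 31.5 CPM to 19.7, 16.9, 17.0 and 18.6 (-0.78 ± 0.12, adjusted p = 0.0487). Ina fell from 28.3, 27.5 and 19 CPM to 12.2, 7.30, 9.04 and 7.81 (-1.45 ± 0.23, adjusted p = 0.0487). Thus in the list of neuronal differentiation genes, 41 tested, 2 rose (Syt1 and Thy1), 1 fell (Ina) and 38 did not pass, with a median of 0.01. In that list 7 members (17.1%) lay above and 5 (12.2%) below all parental libraries, beside 6.39% and 6.95% of all genes. edgeR placed 18 of the 41 at an unadjusted p under 0.05, 9 higher and 9 lower, beside 13.8% of all genes. DESeq2 called 11, beside 5.46% of all genes: Ina, Nefh, Neurod2, Nsg1, Rbfox1, Rbfox3, Snap25, Stmn3, Sv2a, Syt1 and Thy1. With members going both ways, the median of 0.01 does not mean that the list was level.

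A ligand, a receptor and a transcription factor of Wnt signalling fell. Wnt5a, a ligand that acts mainly outside the beta-catenin branch, fell from 62.4, 60.7 and 32.3 CPM to 11 and 16 in R14, 11.5 in R16 and 12.5 in R25 (-2.02 ± 0.25, adjusted p = 0.0355). The receptor Fzd10 was at 5.58, 6.67 and 1.65 CPM against 0.0619, 0.216, 0.261 and 0.157 (-4.71 ± 0.61, adjusted p = 0.0402), and is likewise given by library although it averaged under 5 CPM. Tcf7l2, a transcription factor that beta-catenin binds, fell from 16.1, 15.6 and 10.7 CPM to 3.62, 4.10, 4.24 and 5.92 (-1.66 ± 0.24, adjusted p = 0.0464). Parental replicate 3 was the lowest parental library for all 3, and yet it stood above every mutant library. Of 36 Wnt ligands, receptors and Tcf factors tested, these 3 fell and 33 did not pass, with 2 (5.56%) above and 6 (16.7%) below all parental libraries, against 6.39% and 6.95% of all genes, and a median of -0.07. Sfrp2, a secreted Wnt antagonist and the gene with the smallest p among 16 antagonists and targets, stood at 140, 178 and 119 CPM against 71.8, 97.6, 83.8 and 58.8 (-0.90 ± 0.20, adjusted p = 0.101). None of the 16 passed, while edgeR placed 5 at an unadjusted p under 0.05 and DESeq2 called Sfrp1 and Sfrp2.

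Tead4 and Wwc2, both tied to the Hippo pathway, rose. Tead4, the DNA-binding partner of Yap and Taz, went from 8.29, 10.1 and 16.2 CPM to 34.7 and 36.9 in R14, 41.4 in R16 and 29.8 in R25 (1.63 ± 0.25, adjusted p = 0.0464). Wwc2, of the Kibra family of Hippo regulators, rose from 5.67, 5.50 and 11.6 CPM to 27.6, 28.7, 25.3 and 25.2 (1.82 ± 0.28, adjusted p = 0.0487). The mutant libraries lay close together for both genes, while parental replicate 3 was the highest parental library. Tceal1, an elongation factor-like gene on the X chromosome, rose from 1.70, 1.51 and 1.21 CPM to 8.21, 7.18, 4.41 and 11.3 (2.40 ± 0.36, adjusted p = 0.0464), and the zinc finger gene Zbtb8b changed by 1.97. Fhl1, a LIM domain protein also on the X, rose from 1.58, 1.03 and 0.5 CPM to 29.6 and 15.5 in R14, 6.43 in R16 and 29.5 in R25 (4.29 ± 0.65, adjusted p = 0.0464).

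Protein turnover was represented in both directions. Lonrf3, a RING finger protein of the X chromosome, rose from 2.99, 4.90 and 2.68 CPM to 15.6, 26.7, 24.6 and 33.0 (2.82 ± 0.33, adjusted p = 0.0282). Herc3, a HECT ubiquitin ligase, rose from 6.21, 5.66 and 5.89 CPM to 15.5, 20.1, 17.4 and 15.7 (1.54 ± 0.16, adjusted p = 0.0233). Fbxo2, the F-box protein that recognises glycoproteins, fell from 54.1, 58.9 and 53 CPM to 36.6, 35.9, 31.7 and 31.1 (-0.71 ± 0.11, adjusted p = 0.0499), and the deubiquitinase gene Otud7a changed by -2.36. Mlkl, which carries out necroptosis, rose by 2.92.

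In mitochondria, Ucp2, a carrier of the inner membrane, rose from 0.410, 0.397 and 0.265 CPM to 9.48 and 15.2 in R14, 6.98 in R16 and 2.73 in R25 (4.57 ± 0.63, adjusted p = 0.0425). Parental cells hardly transcribed Ucp2, and R25 was the lowest clone. Tfb2m, a mitochondrial transcription factor, rose from 62.9, 54.5 and 62.5 CPM to 108, 93.1, 96.1 and 99.9 (0.73, adjusted p = 0.0464). The oxidoreductase-like gene Pyroxd2 rose by 5.11 from 0, 5 and 4 parental reads, so the size of its rise is uncertain. The sulfide oxidase gene Sqrdl changed by -2.13. Ucp2 was the only one of 43 mitochondrial carrier and respiration genes to pass, and the list's median was -0.07. The remaining called genes were the actin-binding protein gene Afap1, which fell from 114, 103 and 89.1 CPM to 37.3, 49.1, 41.4 and 56.4 (-1.14 ± 0.16, adjusted p = 0.0425), and Dock5, an activator of the GTPase Rac, from 44.3, 43.3 and 45.4 to 27.7, 26.1, 23.5 and 24.0 (-0.81 ± 0.11, adjusted p = 0.0425). Lower too were Kif19a, a kinesin that limits cilium length (-2.06), the secreted protein gene Itih3 (-4.53), Wscd2 (-4.12), Nwd1 (-1.71) and the clone-named genes 5930412G12Rik (-3.87) and 2810459M11Rik (-1.86). Mutant libraries held few reads of Itih3 (0, 5, 10 and 10) and Wscd2 (9, 3, 9 and 1), so the size of these falls is uncertain.

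**Figure D5:**
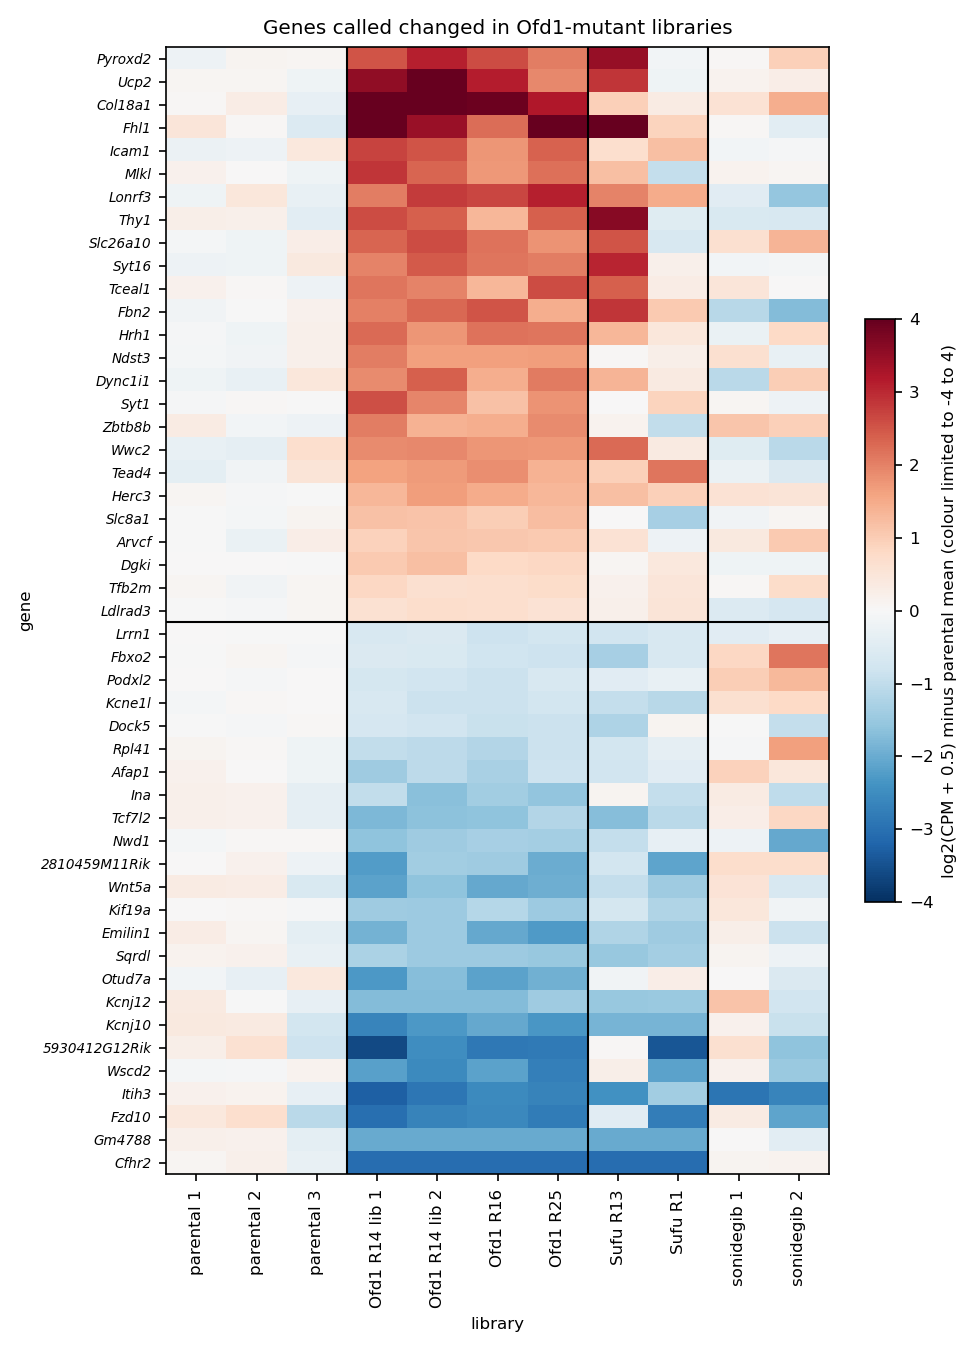
Level of 49 of the 50 called genes in all 11 libraries as log2(CPM + 0.5) minus the parental mean (colour, limited to -4 to 4), with genes ordered from the largest rise to the largest fall and vertical lines between parental, Ofd1-mutant, Sufu-mutant and sonidegib libraries. The 4 Ofd1-mutant columns have 1 sign for each gene. Both Sufu-mutant clones lie beyond every parental library on the same side for many of the genes, more often among the falls. The sonidegib columns do so less often. The calls were made against these same parental libraries, and the share over all genes was not counted.

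Cytosolic ribosomal protein transcripts were mostly lower, with 58 of 62 log2 differences below 0. Rpl41 fell from 784, 761 and 649 CPM to 370, 356, 326 and 399 (-1.01 ± 0.11, adjusted p = 0.0246) and was the only one of 62 to pass. However, 24 of the 62 (38.7%) lay below all parental libraries and 0 above, beside 6.95% and 6.39% of all genes, and the median was -0.27. edgeR placed 22 at an unadjusted p under 0.05, and DESeq2 called 4. By library the list's median relative to the parental mean was -0.24 and -0.12 in R14, -0.25 in R16 and -0.50 in R25, and -0.05, -0.11 and 0.18 in the parental libraries. R14 library 2 was thus close to parental replicate 2. Of 3915 other genes with transcripts under 1000 bases, 7.61% lay below and 4.78% above all parental libraries. Ribosomal protein genes have many near-identical processed copies, so their counts are uncertain. Rpl41 lies in a stretch of 25 neighbouring genes on chromosome 10, from Nabp2 to Itga7, of which 14 were below all parental libraries, with medians of -0.90 and -0.81 in R14, -0.67 in R16 and -0.21 in R25. The 10 genes flanking that stretch had a median of 0.11. The Sufu-mutant clones differed from each other there, at -0.75 (R13) and 0.01 (R1).

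Other neighbourhoods also shifted in some clones. From Abhd13 to Agpat5 on chromosome 8, a stretch that holds the neural stem cell factor Sox1, 15 of 32 genes were below all parental libraries, with medians of -0.51 and -0.10 in the R14 libraries, -0.31 in R16 and -0.87 in R25. R25 was the lowest there, in contrast to the stretch around Sufu, and the flanking genes were as low, with a median of -0.39. On the same chromosome 11 of 19 genes from Pla2g15 to Wwp2 were above, with medians of 0.67, 0.61, 0.50 and 0.12, and their flanks had a median of 0.30. On chromosome 1, 10 of 18 genes from Parp1 to Capn2 were above, at 0.49, 0.54, 0.42 and 0.53, the genes flanking them had a median of 0.36, and parental replicate 3 lay at 0.23. Among all genes of at least 5 CPM, which these stretches count, 7.35% were below and 5.42% above. Over whole chromosomes, 17.3% of the genes tested on chromosome 14 were below all parental libraries and 2.29% above. On chromosome 8, 12.3% were above and 9.29% below. Of all genes tested, 6.95% lay below and 6.39% above. Chromosomes 14 and 8 were named for having the highest share below and the highest share above. Chromosome 17 as a whole lay at a median of 0.35 in R14 library 2 and 0.40 in R16, but at -0.07 in R14 library 1 and -0.15 in R25. The parental libraries differed there too, at -0.098, -0.083 and 0.18. The 2 libraries of clone R14 thus differed from each other on that chromosome. These stretches were also chosen after their values were seen.

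Granule cell progenitor markers, those of the line's own lineage, were mostly level, while neural stem and radial glia genes were mostly lower. Atoh1, the defining factor of granule cell progenitors, stood at 543, 469 and 398 CPM in parental cells and at 497, 449, 439 and 566 in the mutants, and so was high in all 7 libraries. Of 22 granule cell progenitor genes 0 passed, 1 lay above and 1 below all parental libraries, and the median was -0.00. Insm1, a factor of neuronal progenitors, stood at 107, 98.0 and 55.2 CPM against 41.6, 34.3, 34.1 and 29.1 (-1.32 ± 0.23, adjusted p = 0.0558). Neurod1, a factor of granule neuron differentiation, lay at 15.4, 16.1 and 13.5 CPM against 35.1, 25.6, 23.9 and 32.1 (0.96 ± 0.17, adjusted p = 0.0634). Neither gene's groups overlapped. edgeR placed 3 of the 22 at an unadjusted p under 0.05, and DESeq2 called Insm1 and Neurod1. Neural stem and radial glia genes had a median of -0.38 over 18 tested, with 17 of the 18 log2 differences below 0. Of these 18, 0 passed, 4 (22.2%) lay below and 0 above all parental libraries, beside 6.95% and 6.39% of all genes. Sox2, a stem cell factor, was at 31.8, 34.4 and 23.5 CPM against 0.743 and 3.67 in R14, 6.59 in R16 and 3.15 in R25 (-3.08 ± 0.55, adjusted p = 0.0619). edgeR placed 5 of the 18 at an unadjusted p under 0.05, all lower, and DESeq2 called Sox2, Sox1, Slc1a3 and Vim.

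Proliferation genes gave 0 calls. Of 45 S phase genes 1 lay above and 2 below all parental libraries (median 0.03), and of 57 genes of the G2 and M phases 3 lay above and 1 below (median 0.15). Exo1, a DNA repair exonuclease, had the smallest p of the S phase list (0.47, adjusted p = 0.102), and Cenpf, a kinetochore protein, that of the other (0.75, adjusted p = 0.141). At an unadjusted p under 0.05 edgeR placed 5 in each list, no more than the 13.8% of all genes. DESeq2 called Exo1 and Ccne1 in the first and Cenpf in the second, beside 5.46% of all genes. Among 28 genes induced by MAPK signalling, 0 passed, 5 (17.9%) lay above and 1 (3.57%) below, beside 6.39% and 6.95% of all genes, and the median was 0.26. Egr1, an immediate early transcription factor, stood at 16.8, 14.4 and 12 CPM against 32.5, 42.6, 42.8 and 23.6 (1.30 ± 0.24, adjusted p = 0.0644). The groups for Egr1 did not overlap. edgeR placed 8 of the 28 at an unadjusted p under 0.05. DESeq2 called 7: Egr1, Egr2, Egr3, Ier2, Dusp6, Spry1 and Spry4, the last 3 being feedback inhibitors of the pathway.

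Among other signalling lists no gene passed. The 26 Notch genes had a median of -0.02, with the coactivator Maml1 at the smallest p (-0.35, adjusted p = 0.145). For 31 BMP and TGF-beta genes the median was 0.15 and the smallest p was that of the ligand Gdf10 (1.83, adjusted p = 0.0942). Of 56 semaphorin, Eph and other guidance genes 6 (10.7%) lay above and 2 (3.57%) below all parental libraries, where all genes gave 6.39% and 6.95%. Ephb4, an ephrin receptor with the smallest p of that list, stood at 33.1, 38.1 and 13.5 CPM against 7.62, 10.6, 8.78 and 7.13 (-1.73 ± 0.33, adjusted p = 0.0744). At an unadjusted p under 0.05 edgeR placed 4 Notch genes, 4 BMP and TGF-beta genes and 12 guidance genes. DESeq2 called 3, 2 and 8.

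Metabolic and stress lists gave 0 calls outside Ucp2. Of 24 cholesterol synthesis genes 4 (16.7%) lay above all parental libraries and 0 below (6.39% and 6.95% of all genes; median 0.21), and Srebf2, the transcription factor that controls the pathway, was at 440, 454 and 372 CPM against 547, 570, 546 and 540 (0.39 ± 0.10, adjusted p = 0.153). Medians were 0.30 for 28 genes of the integrated stress response, 0.05 for 26 p53 targets, -0.03 for 39 autophagy genes, -0.03 for 33 hypoxia and glycolysis genes and 0.08 for 24 interferon response genes. Within these lists the smallest p belonged to Atf3 (1.77, adjusted p = 0.214), Btg2 (-1.68, adjusted p = 0.0846), Lamp1 (-0.48, adjusted p = 0.278), Pfkp (2.04, adjusted p = 0.196) and H2-D1 (0.87, adjusted p = 0.217). In the order given, edgeR placed 3, 6, 1, 1 and 1 at an unadjusted p under 0.05 and DESeq2 called 1, 3, 0, 1 and 1, and for cholesterol synthesis the counts were 3 and 2. The stress list had medians of -0.60 and 0.51 in the R14 libraries, 0.87 in R16 and -0.03 in R25, and so gave no shared direction. Its medians in the parental libraries also spread, at -0.09, -0.52 and 0.59. The R14 libraries differed from each other although they are 1 clone. Of 8 drug efflux transporters 0 passed, and Abcg2 stood at 7.31, 6.67 and 2.65 CPM against 2.42, 1.33, 2.61 and 1.94 (-1.42 ± 0.40, adjusted p = 0.176). The 3 tested genes of the X inactivation centre had a median of 0.36, with the smallest p for Jpx (0.36, adjusted p = 0.548). edgeR placed 2 efflux genes and 0 X inactivation genes at an unadjusted p under 0.05, and DESeq2 called Abcg2 alone.

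Markers of microglia, endothelium and fibroblasts were low, while those of astrocytes and oligodendrocytes were present in every library. For microglia 3 of 16 markers were tested, with a median of 0.03, and P2ry12, Tyrobp and Emr1 had 0 reads in all 7 libraries. Cldn5 and Sox17 of endothelium and Col3a1 and Dpt of fibroblasts also had 0 reads, and the tested markers of both types had a median of 0.48 over 5 genes each. The summed level of the fibroblast markers was 5.53 to 9.71 CPM in parental and 15.9 to 26.0 in mutant libraries, that of the endothelial markers 2.74 to 11.1 against 4.82 to 15.2 and that of the microglia markers 15.5 to 23.6 against 16.5 to 25.1. Thy1, on the fibroblast list as well as on the neuronal one, was the only marker to pass. Within the fibroblast sum it averaged 1.68 CPM in parental and 9.70 in mutant libraries. Of 9 astrocyte markers, with Gjb6 at 0 reads, 2 (22.2%, against 6.95% of all genes) lay below all parental libraries (median -0.78), with the glutamate transporter Slc1a3 at 159, 223 and 141 CPM against 118, 116, 107 and 127 (-0.57, adjusted p = 0.169). Of 8 oligodendrocyte markers, with Mag at 0 reads, 4 lay above (list median 0.53), against 6.39% of all genes, and Myrf, a transcription factor of myelination with the smallest p, was at 0.284, 0.371 and 0.294 CPM against 1.02, 0.555, 1.04 and 1.31 (1.62 ± 0.41, adjusted p = 0.140). Summed, astrocyte markers were at 629 to 1033 CPM in parental and 526 to 642 in mutant libraries, and oligodendrocyte markers at 176 to 411 against 258 to 451. edgeR placed 4 astrocyte, 4 oligodendrocyte, 0 microglial and 1 endothelial markers at an unadjusted p under 0.05, and DESeq2 called 3, 2, 0 and 0. Any part of other cell types in the called genes was not tested.

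A direct test against the Sufu-mutant clones gave 1 call. In the direct comparison of the 4 Ofd1-mutant with the 2 Sufu-mutant libraries, Trpm3, a cation channel gene, was the only one of 14026 genes to pass (0.00713%), and 1253 (8.93%) had an unadjusted p under 0.05 by edgeR. Of the 50 called genes 45 were tested there, and the lowest adjusted p was 0.268. Both Sufu-mutant clones lay above every parental library for 12 of the 25 rises and below for 19 of the 25 falls. Both sonidegib libraries did so for 6 rises and 3 falls. These counts share the parental libraries with the calls, and the share over all genes was not counted. Col18a1 stood at 7.76 CPM in Sufu clone R13 and 4.82 in R1, below every Ofd1-mutant library. Tead4 stood at 22.1 and 51.0 CPM, so that R1 exceeded every Ofd1-mutant library. With 2 Sufu-mutant clones, an adjusted p above the threshold does not show that the clone classes were alike.

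RefSeq promoters (250 bases before each start, GRCm38.p6) were searched on both strands for short motifs of the factors named above. The Gli motif GACCACCCA lay in 0 of 31 promoters of 22 genes that rose and in 0 of 21 promoters of 18 genes that fell, beside 0.225% of 32851 promoters. For the Tead motif CATTCCA the counts were 0 of 31 and 1 of 21 (the promoter of Sqrdl, named Sqor there), beside 3.69%. The Tcf motif CTTTGAT was in 0 of 31 and in 1 of 21, that of Gm4788, beside 3.21%. None of the 3 motifs contains another, and a match or its lack describes only this window. At these background shares, sets of 31 and 21 promoters were too small for counts of 0 or 1 to show a lack or an excess.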

How the data were processed

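RNA of 11 libraries was read as 75-base single ends after a stranded mRNA preparation, per the labels' protocols. What the authors deposited is a single table of raw read counts by gene symbol, made with STAR on build mm9 per the submitters' processing notes, which also name DESeq2. How reads were assigned to genes, by which annotation and with which strand setting, is not given in the sources used here, so reads of genes that overlap on opposite strands may not be told apart. Of 22620 entries 1 had no gene name and was left out. It held 0.0131% to 0.0186% of the reads of each of the 7 libraries compared.

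Counts went into edgeR's quasi-likelihood test (version 4.0.16 in R 4.3.3, robust, TMM factors, filterByExpr, two-sided) on 4 Ofd1-mutant and 3 untreated parental libraries, with Benjamini-Hochberg adjustment over 13779 genes at 0.05. Levels are CPM on TMM-scaled library sizes of all 11 libraries. Alternatives were DESeq2 1.42.0, RLE factors, no filter, all 11 libraries, R14 summed or left out, each library left out, parental replicate 3 as the only control, and a replicate block. The p-values measure the spread between these libraries, and parental libraries are labelled biological replicates without a statement of separate cultures. On simulated data 86 of 100 genes changed 4-fold, 43 of 97 changed 2-fold and 12 of 13441 unchanged genes were called. The simulation drew every library as an independent sample, although the R14 libraries share a clone, so its shares may not hold for these data.

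Genes named with every library's value were up to 15 rises and 15 falls of the largest log2 fold change with non-overlapping groups and at least 5 CPM on average, passing over clone-type and predicted-gene symbols (15 and 11 were named). Of each of 31 lists (1042 entries, 1038 in the table), members that passed or up to 3 with the smallest p were named. Results of a few genes are not reported here. Members, lists and stretches were chosen with earlier results of these data known. Chromosome and gene order came from RefSeq by symbol (GRCm38), a build other than that of the reads. Transcript lengths and the windows shared between related genes came from GENCODE. Intervals cover counting error only, since reads carry no molecular identifiers.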

Additional observations from a re-analysis of the deposited data

Results flagged for a closer look

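Among the 81 genes whose levels are described, 5 had 1 Ofd1-mutant library apart from the other 3, with a gap that passes Dixon's criterion at 95%. That criterion is set so that chance alone passes it in a small share of groups, and 5 of 81 is itself a small share. The R14 libraries are 1 clone, which draws some values together. Kcnj12, a potassium channel gene that fell, stood at 0.734 CPM in R25 and at 0.490 to 0.496 in the others, which is 28 reads against 15 to 16. Kif19a, a kinesin gene that fell, was at 0.653 CPM in R16 and 0.419 to 0.434 elsewhere, which is 20 reads against 14 to 16. Counts this small leave both gaps uncertain. Ndst3, a sulfotransferase gene that rose, reached 5.88 CPM in R14 library 1 against 4.25 to 4.38. Cdk6 was highest in R25, at 54.0 CPM against 44.6 to 45.1. H2-D1, a class I histocompatibility gene, was also highest in R25, at 29.9 CPM against 19.7 to 20.8.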

How the results depend on the processing

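The count of called genes (50, 25 higher and 25 lower) depended on the processing more than the directions did. It was 770 (442 and 328) by DESeq2, 84 (45 and 39) without a filter on low counts, 9 (4 and 5) with all 11 libraries in the fit, 1 (0 and 1) with the R14 libraries summed, 0 without clone R14, 0 with parental replicate 3 as the only control and 44 with RLE factors. Leaving out 1 library at a time gave 0 to 329 calls, 0 to 175 of them higher and 0 to 154 lower. Each of the 50 genes kept its direction in every one of these fits that tested it. The cause of these differences was not tested.

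Replicate numbers showed no pairing between parental replicates 1 and 2 and the R14 libraries, the only ones checked in this way. Over genes, the log2 difference of replicate 1 minus 2 in parental cells had a correlation of -0.0057 with that in R14. On parental replicates 1 and 2 with the R14 libraries, a fit with a replicate block called 1600 genes (946 higher, 654 lower) and one with no replicate block 1871 (1113 and 758). The log2 difference of Hhip turned to -0.14 with the block and -0.072 without it. Over the alternatives the median for ribosomal proteins ran from -0.42 to -0.18, and that for the stress response from -0.16 to 0.72. The mutant arm holds 3 clones, 1 of them read as 2 libraries, which limits precision. In simulated data, with every library drawn as independent, 43 of 97 genes changed 2-fold were called, so smaller changes could be missed.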
